A study of Mus musculus with 8 samples.

Results

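ETS transcription factors share a winged helix-turn-helix DNA-binding domain, whose recognition helix reads the core motif GGAA, and they work in blood cells at all stages from stem cells to neutrophils and platelets. Family members differ outside this domain: some activate transcription, ETV6 and ERF repress it, and ELK3 is a ternary complex factor that binds with serum response factor and is switched by ERK phosphorylation. The study behind these data examined ELF1, an ETS activator of blood and lymphoid genes, in cells that had lost the histone chaperone CAF-1, so the messenger RNA levels of Elf1 and of its relatives were of interest. Here 10 named family members were described, out of 34199 genes in the count files: Elf1, Elf2, Elf4, Ets1, Ets2, Fli1, Etv6, Gabpa, Elk3 and Erg. They were chosen by name, and all 10 passed the filter on low counts that left 13080 genes for testing.

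The counts came from bulk RNA sequencing of immortalised granulocyte-macrophage progenitors (iGMPs) of C57Bl/6 mice. All cells carried a GFP reporter of the lysozyme gene and HOXA9 fused to an estrogen receptor ligand-binding domain, which keeps HOXA9 active while estradiol is present, so the progenitor state rests on an introduced oncogenic fusion. There were 8 libraries, 2 per group: uninduced cells at 0 h with 150 ng/ml estradiol, CAF-1 OFF cells given 500 µM IPTG for 48 h with estradiol to express an shRNA against Chaf1b (a CAF-1 subunit), IPTG-treated control cells at 48 h with estradiol, and HOXA9 OFF cells kept 48 h without estradiol. Per the study's methods the inducible lines were clones, and its supplement mentions that independent sub-clones were looked at by RNA-seq. The labels give neither the vector of HOXA9 OFF, IPTG-treated control or uninduced cells nor any link between the 2 replicates and these sub-clones, so p-values measure only the spread between these libraries.

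Gene counts summed to between 14044284 and 22423837 per library. IPTG-treated control replicate 1 stood apart with 14.6% of reads outside genes, against 5.30% to 7.79% in the other 7. The HOXA9 OFF replicates differed from each other more than those of any other group, with a chi-square per degree of freedom between their gene counts of 84.5 against 17.9 to 25.7. Chaf1b was at 96.8 and 100.3 CPM (read counts per 1000000 of the TMM-scaled library size) in uninduced, 95.1 and 101.7 in IPTG-treated control, 18.7 and 9.72 in CAF-1 OFF and 48.3 and 41.0 in HOXA9 OFF libraries. Of the progenitor markers fixed for these cells, all 9 had counts, and they summed to 15090 and 11120 CPM in uninduced, 14420 and 11350 in IPTG-treated control, 16620 and 16570 in CAF-1 OFF and 8429 and 6143 in HOXA9 OFF libraries. In HOXA9 OFF cells 4 of them fell (Cd34, Ctsg, Flt3 and Kit), beside 22.1% of all genes tested, and 1 rose (Ms4a3), beside 25.2%. In CAF-1 OFF cells 1 rose (Elane), beside 10.5% of all genes, and 0 fell, beside 3.50%. The part of these changes in the levels of the factors was not tested. Neutrophil markers (9 genes) summed to 97.78 and 95.96 CPM in uninduced, 1283 and 2222 in CAF-1 OFF, and 9362 and 6345 in HOXA9 OFF libraries. Mmp8 alone gave 1091 and 1937 CPM of the CAF-1 OFF sums. Of the 9, 6 rose there (median log2FC 2.21), beside 10.5% of all genes, with Ltf, Mmp9 and Camp not called. All 9 rose in HOXA9 OFF cells, beside 25.2% of all genes. In bulk samples fewer cells of a type and less RNA per cell cannot be told apart, which holds for each level below.

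The stretch of coding sequence for the recognition helix shows which factors are close kin of ELF1. Each line gives 42 bases of coding sequence from GENCODE vM1 transcripts (mm9), read on the gene's own strand, and capitals mark bases that differ from Elf1.
Elf1: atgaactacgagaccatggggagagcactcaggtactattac
Elf2: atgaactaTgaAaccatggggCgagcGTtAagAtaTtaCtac
Elf4: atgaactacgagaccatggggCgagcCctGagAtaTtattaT
Ets1: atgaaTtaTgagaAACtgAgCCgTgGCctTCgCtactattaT
Ets2: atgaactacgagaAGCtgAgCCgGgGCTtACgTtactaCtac
Fli1: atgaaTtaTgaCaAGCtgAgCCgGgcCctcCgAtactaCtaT
Etv6: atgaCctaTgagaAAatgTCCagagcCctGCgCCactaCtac
Gabpa: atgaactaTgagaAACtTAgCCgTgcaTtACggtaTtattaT
Elk3: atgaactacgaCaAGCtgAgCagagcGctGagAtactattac
Erg: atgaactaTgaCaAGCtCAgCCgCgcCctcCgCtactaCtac
Elf2 differed from Elf1 at 9 of these bases and Elf4 at 6, yet both encoded the same 14 residues. The other 7 members kept 10 or 11 of the 14. Over an aligned window of the ETS domain, ELF1 shared 94.2% of residues with ELF2 and 95.3% with ELF4 but from 43.5% to 51.2% with the rest. ETS1 and ETS2 were 96.5% identical there, and so were FLI1 and ERG. Of the 50-base windows of the longest coding transcript, 100% were found in no other protein-coding gene for 9 members and 99.64% for Elf1. Pseudogenes and other transcripts were not searched, and how reads were shared between genes was not tested.

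Elf1 passed the call in no comparison: in CAF-1 OFF cells both libraries were slightly lower than the controls, and in HOXA9 OFF cells the fitted difference from uninduced was near 0. Elf1 (chr14:79881001-79982283, mm9, plus strand) stood at 175.6 and 188.2 CPM in uninduced, 177.5 and 175.2 in IPTG-treated control, 158.9 and 133.0 in CAF-1 OFF and 187.3 and 177.8 in HOXA9 OFF libraries. Both CAF-1 OFF values lay below the other 6 libraries, while HOXA9 OFF and uninduced values overlapped. A call required an FDR (adjusted p over all genes tested) under 0.05 from edgeR's quasi-likelihood test and a change of at least 1.5-fold. In CAF-1 OFF against uninduced cells, the log2 fold change (log2FC) of Elf1 was -0.32 (SE 0.11, 95% interval -0.57 to -0.065, edgeR FDR = 0.0749). Against IPTG-treated control it was -0.27 (edgeR FDR = 0.118). HOXA9 OFF differed from uninduced cells by 0.005 on the log2 scale (95% interval -0.25 to 0.26, edgeR FDR = 0.973), a difference near 0 whose sign turned under library size alone, without the low-count filter and in a fit of only these groups. CAF-1 OFF was lower than HOXA9 OFF by 1.25-fold (edgeR FDR = 0.0368), which passed the FDR limit but not the fold limit. Elf1 shares 75 exon bases with Wbp4 on the opposite strand, and whether counting used strand is not stated.

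**Figure D1:**
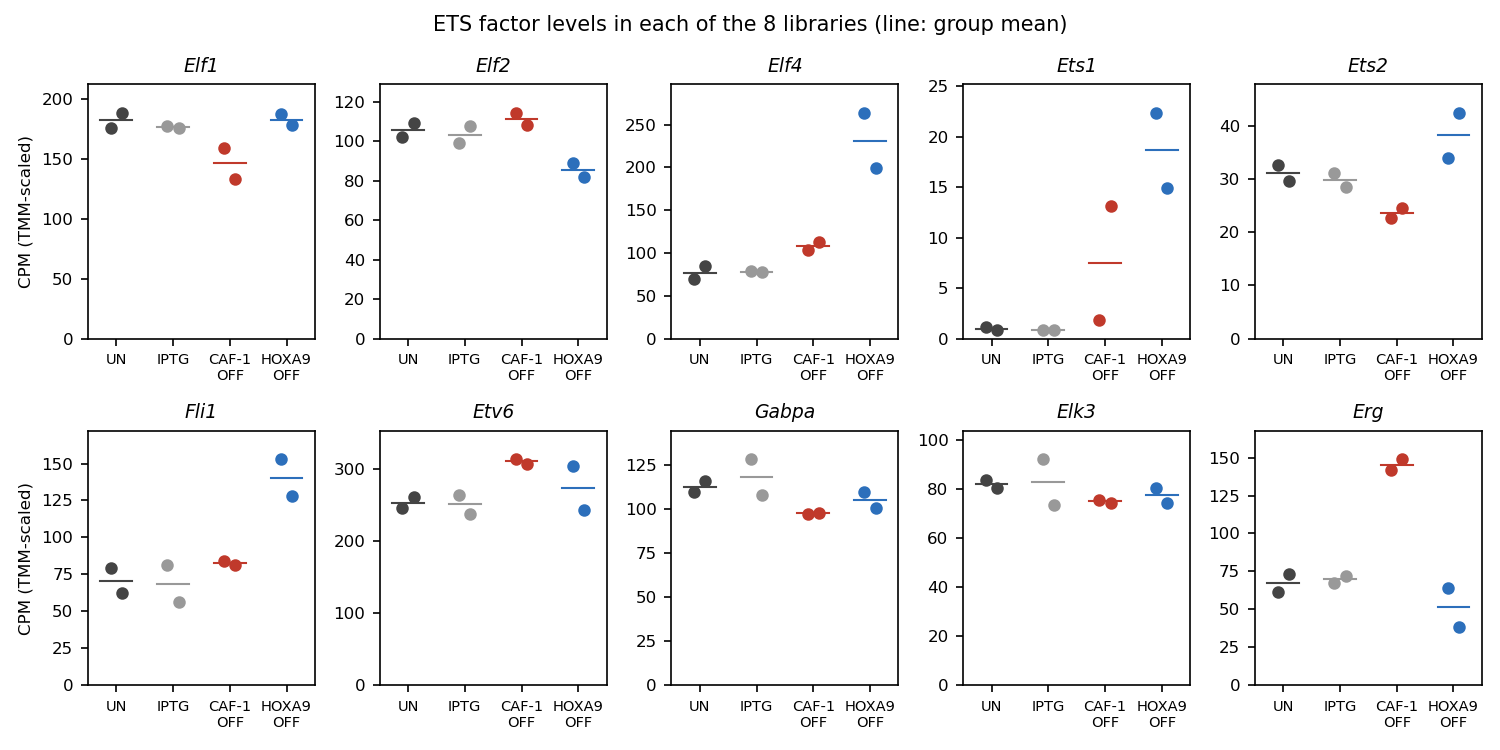
Level of each ETS factor in CPM (linear axes from 0) in the 8 libraries, with points for libraries and a line for each group mean (UN, uninduced; IPTG, IPTG-treated control). Elf1 lies lowest in both CAF-1 OFF libraries, Erg is at 141.7 and 149.0 CPM there, and Elf4 reaches 264.0 and 199.0 CPM in HOXA9 OFF libraries.

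Of the close relatives of Elf1, Elf4 rose in HOXA9 OFF cells and Elf2 was not called there or in CAF-1 OFF cells. Elf4, also called MEF, is an activator known for its part in the quiescence of blood stem cells and in natural killer cells. Elf4 (chrX:45764223-45816309, minus strand) was at 69.3 and 84.5 CPM in uninduced, 78.6 and 78.0 in IPTG-treated control, 103.9 and 113.3 in CAF-1 OFF and 264.0 and 199.0 in HOXA9 OFF libraries. The HOXA9 OFF libraries stood above all others and the CAF-1 OFF libraries above both controls. Elf4 rose 3.01-fold in HOXA9 OFF cells (log2FC 1.59, SE 0.16, edgeR FDR = 0.000113). In CAF-1 OFF cells its log2FC was 0.50 (95% interval 0.14 to 0.86, edgeR FDR = 0.0583) and was not called. The direct comparison put CAF-1 OFF 2.13-fold below HOXA9 OFF (edgeR FDR = 0.000866).

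Elf2, also known as NERF, was described with isoforms that activate and isoforms that repress. It was at 102.2 and 109.2 CPM in uninduced, 98.99 and 108.0 in IPTG-treated control, 114.6 and 108.3 in CAF-1 OFF and 88.99 and 82.03 in HOXA9 OFF libraries. Both HOXA9 OFF values were the lowest of the 8. The log2FC in HOXA9 OFF cells was -0.31 (SE 0.099, edgeR FDR = 0.0299) and did not reach 1.5-fold, and in CAF-1 OFF cells it was 0.076 (95% interval -0.15 to 0.31). CAF-1 OFF exceeded HOXA9 OFF by 0.38 on the log2 scale (edgeR FDR = 0.013), again short of the fold limit, which it passed with library size alone (0.615, edgeR FDR = 0.00191).

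Erg and Fli1, paralogues that both belong to the set of factors bound together in blood stem and progenitor cells, separated by treatment: Erg rose in CAF-1 OFF and Fli1 in HOXA9 OFF cells. Erg (chr16:95580776-95808200, minus strand) was at 61.4 and 73.5 CPM in uninduced, 67.6 and 71.9 in IPTG-treated control, 141.7 and 149.0 in CAF-1 OFF and 64.3 and 38.4 in HOXA9 OFF libraries. Both CAF-1 OFF libraries stood well above the other 6, and those of HOXA9 OFF were spread across and below the uninduced range. Erg rose 2.16-fold in CAF-1 OFF cells (log2FC 1.11, SE 0.22, edgeR FDR = 0.0159) and 2.08-fold against IPTG-treated control (edgeR FDR = 0.0198). Leaving out either uninduced or either CAF-1 OFF library kept the log2FC between 0.98 and 1.24 but took the edgeR FDR to between 0.0553 and 0.112. The same happened against IPTG-treated control, where leaving out any 1 of the 4 libraries gave an edgeR FDR from 0.066 to 0.127. In HOXA9 OFF cells the log2FC of Erg was -0.39 (95% interval -0.91 to 0.12, edgeR FDR = 0.16), and without HOXA9 OFF replicate 1 it was -0.81 and was called (edgeR FDR = 0.00253). CAF-1 OFF exceeded HOXA9 OFF by 2.83-fold (SE 0.22 on the log2 scale, edgeR FDR = 0.00103), so the treatments differed for this gene.

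Fli1 (chr9:32229793-32348974, minus strand), a regulator of megakaryocytes, was at 78.96 and 62.59 CPM in uninduced, 80.97 and 56.37 in IPTG-treated control, 83.75 and 81.03 in CAF-1 OFF and 152.9 and 127.9 in HOXA9 OFF libraries. The HOXA9 OFF libraries stood far above the others, while those of CAF-1 OFF lay just above the highest control library. Fli1 rose 1.98-fold in HOXA9 OFF cells (log2FC 0.99, SE 0.19, edgeR FDR = 0.00306), against a log2FC of 0.22 in CAF-1 OFF cells (95% interval -0.22 to 0.66, edgeR FDR = 0.443). CAF-1 OFF was 1.70-fold lower than HOXA9 OFF (edgeR FDR = 0.0108). That call was lost without CAF-1 OFF replicate 1 (log2 difference -0.80, edgeR FDR = 0.0536), without CAF-1 OFF replicate 2 (-0.74, edgeR FDR = 0.064) and with library size alone (-0.54, edgeR FDR = 0.0334, under 1.5-fold).

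Ets1, best known from lymphocytes, was nearly silent in uninduced iGMPs and had the widest range of the 10 factors. Ets1 (chr9:32443806-32565405, plus strand) was counted 26 and 19 times in uninduced libraries (1.16 and 0.81 CPM) and 12 and 13 times in IPTG-treated control (0.85 and 0.80 CPM). It was counted 34 and 251 times in CAF-1 OFF (1.79 and 13.1 CPM) and 412 and 301 times in HOXA9 OFF libraries (22.4 and 14.9 CPM). HOXA9 OFF libraries were the highest, but the CAF-1 OFF libraries lay far apart, replicate 1 just above the controls and replicate 2 just below HOXA9 OFF.

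The rise of Ets1 in HOXA9 OFF cells was 18.8-fold (log2FC 4.24, SE 0.84, edgeR FDR = 0.00344). In CAF-1 OFF cells the log2FC was 2.91 (SE 0.82, 95% interval 1.02 to 4.81, edgeR FDR = 0.0421) and it rested on replicate 2: without that library it was 0.86 (edgeR FDR = 0.272). Against IPTG-treated control it was 3.17 (edgeR FDR = 0.0421), and without CAF-1 OFF replicate 2 the edgeR FDR was 0.205. Both calls were also lost without either control library, with edgeR FDR from 0.165 to 0.188, and in a fit of only the groups compared, where the edgeR FDR was 0.0506 and 0.0501. With the replicate number as a block, the call against uninduced cells was lost (log2FC 2.75, edgeR FDR = 0.0517). CAF-1 OFF replicate 2 also had the lower Chaf1b level (9.72 against 18.7 CPM), the higher neutrophil marker sum (2222 against 1283 CPM, mostly Mmp8) and the higher macrophage marker sum (93.7 against 61.5 CPM, 8 genes), and the part of these in the Ets1 difference was not tested. CAF-1 OFF did not differ from HOXA9 OFF past the threshold (log2 difference -1.32, 95% interval -3 to 0.36, edgeR FDR = 0.159), while without CAF-1 OFF replicate 2 the difference was -3.37 and was called (edgeR FDR = 0.002).

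Ets2, a paralogue of Ets1 that responds to ERK signalling in macrophages, went in opposite directions in the 2 treatments without a call against uninduced cells. It was at 32.6 and 29.6 CPM in uninduced, 31.0 and 28.4 in IPTG-treated control, 22.6 and 24.5 in CAF-1 OFF and 33.9 and 42.4 in HOXA9 OFF libraries. All CAF-1 OFF values were below, and all HOXA9 OFF values above, the controls. The log2FCs were -0.40 (95% interval -0.74 to -0.059, edgeR FDR = 0.0916) and 0.30 (95% interval -0.043 to 0.64, edgeR FDR = 0.118). The direct difference was called, with CAF-1 OFF 1.62-fold lower (log2 difference -0.70, SE 0.15, edgeR FDR = 0.00532), although it fell under 1.5-fold with library size alone (-0.47) and without HOXA9 OFF replicate 2 (-0.54).

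The members form neighbouring pairs on 2 chromosomes. Fli1 and Ets1 lie 94831 bases apart on chromosome 9, and Erg and Ets2 lie 115481 bases apart on chromosome 16, in each case with 0 protein-coding genes between them. Fli1 and Ets1 both rose in HOXA9 OFF cells, while in CAF-1 OFF cells Ets1 was called and Fli1 was not (log2FC 0.22). In CAF-1 OFF cells Erg rose and Ets2 had an uncalled log2FC of -0.40, and in HOXA9 OFF cells neither was called (-0.39 for Erg and 0.30 for Ets2).

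The remaining factors had fitted changes under 1.5-fold in both treatments. Etv6 (also TEL), a repressor needed for blood stem cells in bone marrow, was at 245.2 and 260.1 CPM in uninduced, 263.8 and 237.3 in IPTG-treated control, 313.0 and 306.9 in CAF-1 OFF and 303.5 and 242.7 in HOXA9 OFF libraries. Its CAF-1 OFF values exceeded the other 6, by a log2FC of 0.29 against uninduced (95% interval 0.0013 to 0.59, edgeR FDR = 0.135). Gabpa, the DNA-binding subunit of GABP that serves housekeeping and mitochondrial genes, was at 109.4 and 115.8 CPM in uninduced, 128.3 and 108.0 in IPTG-treated control, 97.3 and 97.7 in CAF-1 OFF and 109.7 and 100.8 in HOXA9 OFF libraries. Its log2FC in CAF-1 OFF cells was -0.21 (95% interval -0.46 to 0.049, edgeR FDR = 0.215), with both values the lowest of the 8. Elk3 was at 83.7 and 80.5 CPM in uninduced, 92.3 and 73.4 in IPTG-treated control, 75.8 and 74.4 in CAF-1 OFF and 80.7 and 74.5 in HOXA9 OFF libraries. Its CAF-1 OFF and HOXA9 OFF values fell within the range of the IPTG-treated control, with log2FCs of -0.13 (95% interval -0.42 to 0.16) and -0.081 (95% interval -0.37 to 0.21) against uninduced. Gabpa shares 397 exon bases with Atp5j, Elk3 shares 316 with Cdk17 and Etv6 shares 135 with Gm17089, each on the opposite strand.

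**Figure D2:**
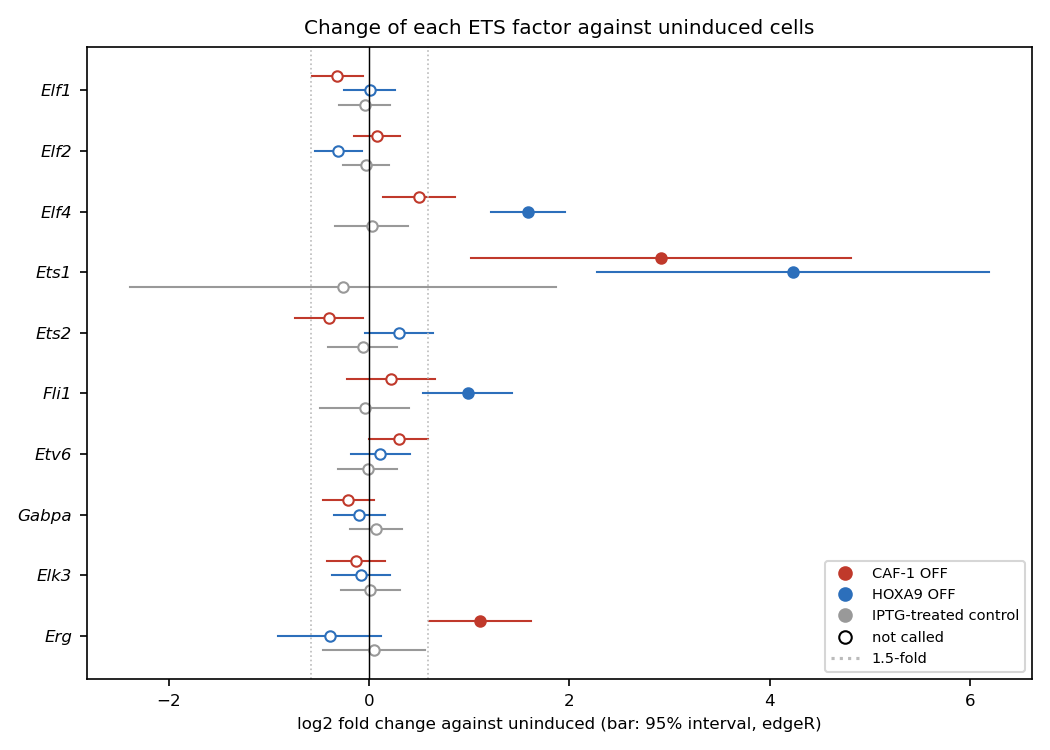
Log2 fold change of each factor against uninduced cells for HOXA9 OFF, IPTG-treated control and CAF-1 OFF libraries, with 95% intervals from edgeR and dotted lines at 1.5-fold. Filled points passed the call, which were Ets1 and Erg in CAF-1 OFF and Elf4, Ets1 and Fli1 in HOXA9 OFF cells. No IPTG-treated control point is filled.

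Counted together, 2 of the 10 factors rose in CAF-1 OFF against uninduced cells (beside 10.5% of all genes tested) and 0 fell (3.50% of all genes). This count was 0 without uninduced replicate 1, uninduced replicate 2 or CAF-1 OFF replicate 2, where the 1836 calls over all genes became 157, 836 and 272, and 1 (Ets1) without CAF-1 OFF replicate 1 (1358 over all genes). In HOXA9 OFF cells 3 rose, beside 25.2% of all genes, and 0 fell, beside 22.1%, so the share that rose was close to that of genes in general. With library size alone the all-gene calls in HOXA9 OFF cells shifted from 3293 higher and 2886 lower to 2715 higher and 3701 lower. Against IPTG-treated control, Ets1 and Erg again were higher in CAF-1 OFF cells (9.56% of all genes) and 0 factors were lower (3.20%), and leaving out a library gave 1 factor without CAF-1 OFF replicate 1 and 0 without any of the other 3. Both comparisons share the CAF-1 OFF libraries. Between CAF-1 OFF and HOXA9 OFF cells 1 factor, Erg, was higher (22.2% of all genes) and 3, Elf4, Ets2 and Fli1, were lower (21.4%). Of all genes, 2898 were higher and 2797 lower there, or 3949 and 2064 with library size alone. The IPTG-treated control differed from uninduced cells at 0 factors and 0% of all genes by edgeR. At an unadjusted edgeR p under 0.05 it differed at 0 factors and at 100 genes (0.765%), and DESeq2 called 5 genes.

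The median log2FC of the 10 factors was 0.15 in CAF-1 OFF cells, beside 0.013 over all genes, and 0.059 in HOXA9 OFF cells, beside 0.0069. With library size alone these HOXA9 OFF medians became -0.13 and -0.18.

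Levels of different genes can be compared per length, as CPM per kilobase of the joined exons of each gene. In uninduced cells Etv6 and Elf1 led with 42.2 ± 1.8 and 42.0 ± 2.1 CPM per kb (SD, n = 2), and their ranges overlapped. Elf2 (24.1), Fli1 (22.8), Gabpa (19.8), Erg (19.4) and Elk3 (18 CPM per kb) followed, each overlapping its neighbour in this order. Below them Elf4 (12.5), Ets2 (6.6) and Ets1 (0.153 CPM per kb) stood apart from each other.

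The order changed with treatment. In CAF-1 OFF cells Etv6 (51.8 CPM per kb) was first, ahead of Erg (41.7) and Elf1 (33.7), with ranges that did not overlap, while Fli1 and Elf2 overlapped at 26.5 and 25.4, and Elf4 and Gabpa at 17.7 and 17.1. Elk3 (16.5), Ets2 (4.99) and Ets1 (1.16 CPM per kb) came last without overlap. In HOXA9 OFF cells Etv6 (45.6), Fli1 (45.2), Elf1 (42.2) and Elf4 (37.7 CPM per kb) each overlapped the next, then came a gap to Elf2 (19.5), Gabpa (18.5), Elk3 (17.1) and Erg (14.7), which also overlapped in turn, and then Ets2 (8.10) and Ets1 (2.90 CPM per kb).

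**Figure D3:**
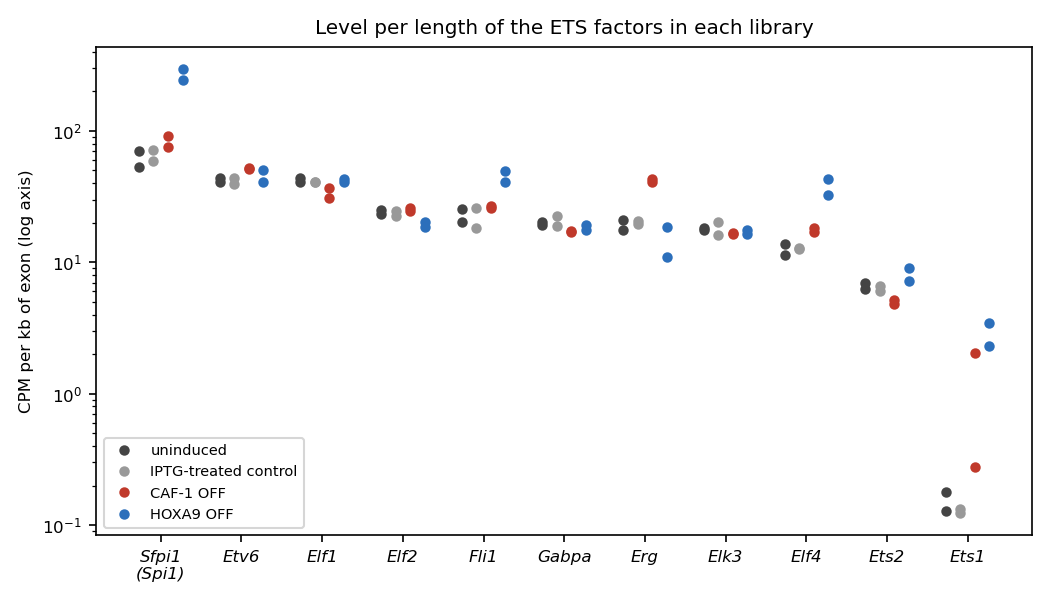
CPM per kilobase of exon (log axis) of each factor and of Sfpi1 in the 8 libraries, ordered by the uninduced mean. Erg in CAF-1 OFF libraries rises past Elf1, and Sfpi1 in HOXA9 OFF libraries stands above every other point.

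The other 17 ETS genes gave the setting for these levels. The files hold 16 of them, of which 7 passed the filter, among them Spi1 (PU.1, the master regulator of myeloid fate) under its older symbol Sfpi1. With per-length levels summed over the 26 family genes, the 10 factors made up 65.0% and 70.7% in uninduced, 65.7% and 67.9% in IPTG-treated control, 66.9% and 65.1% in CAF-1 OFF, and 46.2% and 46.0% in HOXA9 OFF libraries. Sfpi1 was the gene that took the larger part in HOXA9 OFF cells, from 17.9% to 22.3% of the sum in uninduced libraries to 49.1% and 50%. Elf1 made up 12.9% to 14.6% of the family sum in uninduced, 8.53% to 10.3% in CAF-1 OFF and 7.34% to 8.21% in HOXA9 OFF libraries, although its own level in the latter differed from uninduced by 0.005 on the log2 scale.

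Of the 7 tested, 1 rose and 0 fell in CAF-1 OFF cells (median log2FC -0.051), and 2 rose and 2 fell in HOXA9 OFF cells (median -0.070). Over all genes, 10.5% rose and 3.50% fell in CAF-1 OFF cells, and 25.2% rose and 22.1% fell in HOXA9 OFF cells. These counts were thus near those of genes in general. Sfpi1 was at 188.9 and 144.6 CPM in uninduced, 201.7 and 247.3 in CAF-1 OFF and 795.6 and 662.1 in HOXA9 OFF libraries, a rise of 4.37-fold in the last (edgeR FDR = 6.46e-05) and a log2FC of 0.43 in CAF-1 OFF cells that was not called (edgeR FDR = 0.127). Etv3, a repressor, rose in both treatments (log2FCs 0.87 and 1.03, edgeR FDR = 0.0128 and 0.00097), the first call being lost without any 1 of the 4 libraries. Erf, a repressor exported from the nucleus upon ERK phosphorylation, fell by 1.21 on the log2 scale in HOXA9 OFF cells (edgeR FDR = 0.000142). Etv4, an activator induced by receptor tyrosine kinase signalling, went from 22.8 and 14.6 CPM in uninduced to 0.27 and 0.099 CPM in HOXA9 OFF libraries, and was at 21.4 and 13.8 in CAF-1 OFF libraries.

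GABPA acts with a β subunit. Of the 2 genes for it, 0 were called in CAF-1 OFF cells, and Gabpb1 fell by 0.61 on the log2 scale in HOXA9 OFF cells (edgeR FDR = 0.00354), from 68.5 and 68.3 CPM to 47.6 and 42.0, a call lost without HOXA9 OFF replicate 2.

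FLI1 and ERG belong to a heptad of factors of blood stem cells whose other members are Gata2, Runx1, Tal1, Lyl1 and Lmo2. Of these 5, Runx1 rose in CAF-1 OFF cells and 0 fell (median log2FC 0.045), while in HOXA9 OFF cells Runx1 rose and Tal1 fell (median 0.071). Runx1, needed for the emergence of blood stem cells, was at 35.7 and 39.6 CPM in uninduced, 64.1 and 67.9 in CAF-1 OFF and 121.5 and 124.7 in HOXA9 OFF libraries, without overlap between the 3 groups. Its rise was 1.75-fold (edgeR FDR = 0.00543) and 3.27-fold (edgeR FDR = 1.95e-05). Tal1, a factor of stem cells, erythroid cells and megakaryocytes, fell by 1.99 on the log2 scale in HOXA9 OFF cells (edgeR FDR = 6.6e-05).

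Megakaryocyte genes are textbook targets of FLI1, ERG and GABPA. Of 10 such genes 7 were tested, and 4 rose and 0 fell in CAF-1 OFF cells (median log2FC 2.50), while 6 rose and 0 fell in HOXA9 OFF cells (median 2.68). Beside them, 10.5% of all genes rose and 3.50% fell in CAF-1 OFF cells (median 0.013). In HOXA9 OFF cells 25.2% of all genes rose and 22.1% fell (median 0.0069). Itga2b, the platelet integrin chain CD41, was at 14.9 and 17.5 CPM in uninduced, 109.1 and 74.6 in CAF-1 OFF and 114.2 and 93.3 in HOXA9 OFF libraries, and both rises were called (log2FCs 2.50 and 2.68, edgeR FDR = 0.0019 and 4.4e-05). Pf4, a platelet chemokine, was at 2.67 and 3.04 CPM in uninduced, 55.8 and 124.4 in CAF-1 OFF and 1.25 and 20.8 in HOXA9 OFF libraries, and rose in the former (log2FC 4.98, edgeR FDR = 0.0192). Gp9, part of the von Willebrand factor receptor, rose in both (log2FCs 1.84 and 0.99, edgeR FDR = 0.00763 and 0.0165), and Gp1ba of the same receptor rose in HOXA9 OFF cells (log2FC 1.27, edgeR FDR = 0.0108). The 4 calls in CAF-1 OFF cells became 1 without either uninduced library and 2 without CAF-1 OFF replicate 2, and the 6 in HOXA9 OFF cells became 2 without uninduced replicate 2 and 4 without HOXA9 OFF replicate 2. Vwf (von Willebrand factor) and Ppbp (a platelet chemokine), the calls lost without the latter library, were at 0.65 and 53.6 CPM and at 0.98 and 15.2 CPM in HOXA9 OFF replicates 1 and 2. The direct comparison called Gp9 and Pf4 higher (beside 22.2% of all genes) and Vwf lower (beside 21.4%) in CAF-1 OFF than in HOXA9 OFF cells. These 3 calls became 1 without either CAF-1 OFF library or without HOXA9 OFF replicate 2, and 1 of the 3 genes changed sign without HOXA9 OFF replicate 2.

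ELK3 and its relatives act at serum response genes, and this list parted the treatments. Of 7 tested, 0 were called in CAF-1 OFF cells (median log2FC 0.11) and 6 rose in HOXA9 OFF cells (median 1.72): Egr1, Egr2, Fos, Fosb, Ier2 and Junb, genes of the immediate early kind. Among all genes tested, 10.5% rose and 3.50% fell in CAF-1 OFF cells, and 25.2% rose in HOXA9 OFF cells. The count of 0 in CAF-1 OFF cells was thus near the general share. Ier2 was not called with library size alone or without HOXA9 OFF replicate 1. Fos was at 10.4 and 7.53 CPM in uninduced, 8.26 and 5.80 in CAF-1 OFF and 62.3 and 154.3 in HOXA9 OFF libraries (log2FC in the last 3.59, SE 0.43, edgeR FDR = 0.000266). Egr1 went from 4.50 and 5.48 to 11.2 and 21.6 CPM, Junb from 27.6 and 25.8 to 57.1 and 73.4 CPM and Ier2 from 71.1 and 63.4 to 119.1 and 99.9 CPM between uninduced and HOXA9 OFF libraries. In CAF-1 OFF libraries these 3 genes were at 8.37 and 7.58, at 28.4 and 29.2, and at 65.4 and 64.3 CPM. The direct comparison called 5 of the 7 lower in CAF-1 OFF than in HOXA9 OFF cells (beside 21.4% of all genes) and 0 higher (beside 22.2%).

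Feedback inhibitors of ERK signalling, several of them under ETS control, went the other way. Of 9 tested, 0 were called in CAF-1 OFF cells (median log2FC 0.28), whereas in HOXA9 OFF cells 6 fell and 1 rose (median -2.13). Dusp6, a phosphatase of cytoplasmic ERK, was at 316.6 and 216.0 CPM in uninduced, 287.3 and 301.1 in CAF-1 OFF and 44.2 and 51.0 in HOXA9 OFF libraries, a fall of 5.59-fold (edgeR FDR = 7.72e-05). Spred1 and Spred2, inhibitors of RAS and RAF signalling, fell by 1.29 and 1.80 on the log2 scale (edgeR FDR = 0.0238 and 0.000136), as did the Sprouty genes Spry1, Spry2 and Spry4. Dusp5, a nuclear ERK phosphatase, was the gene that rose, from 13.3 and 20.2 to 68.7 and 85.0 CPM (log2FC 2.20, edgeR FDR = 0.000226). The direct comparison called 6 of the 9 higher (beside 22.2% of all genes) and 1, Dusp5, lower (beside 21.4%) in CAF-1 OFF than in HOXA9 OFF cells. Among the genes called on any of these lists against uninduced cells, none that was still tested changed sign with DESeq2 size factors, with library size alone or on leaving out a library. Between CAF-1 OFF and HOXA9 OFF cells the megakaryocyte gene given above was the exception.

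**Figure D4:**
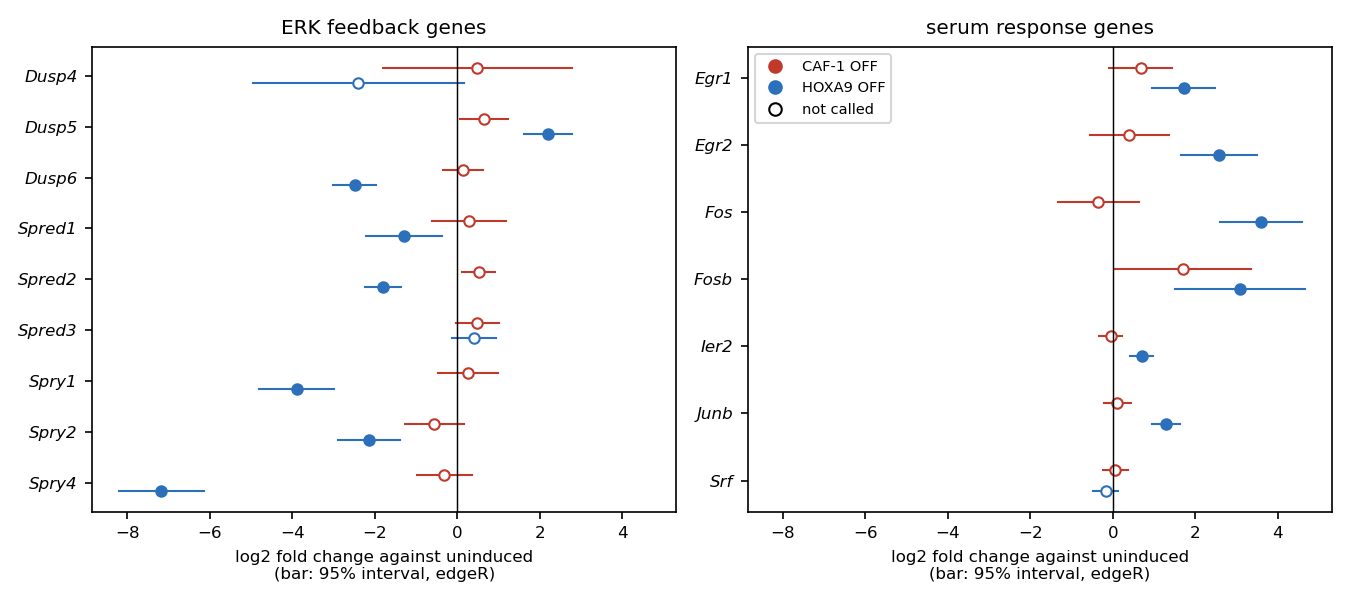
Log2 fold change against uninduced cells, with 95% intervals from edgeR, of the 9 ERK feedback genes and the 7 serum response genes tested, for each treatment. Filled points passed the call, and all of them belong to HOXA9 OFF cells.

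Marker sums also differed between groups. The 6 megakaryocyte markers all stand on the list of megakaryocyte genes above, so their sum restates those values. They summed to 23.9 and 25.5 CPM in uninduced, 190.3 and 219.1 in CAF-1 OFF and 128.7 and 192.0 in HOXA9 OFF libraries, of which Itga2b gave 114.2 and 93.3 CPM in the last 2. Mast cell and basophil markers (6 genes) were at 206.9 and 150.9, 1055 and 661, and 168.5 and 224.3 CPM in the same order. Cpa3 (764.5 and 423.1 CPM) and Mcpt8 (267.1 and 227.8 CPM) made up nearly all of the CAF-1 OFF sum. They were the 2 of 5 tested that rose there, beside 10.5% of all genes, while Ms4a2, Prss34 and Cma1 were not called. Fcer1a did not pass the low-count filter. Macrophage markers (8 genes) were at 55.4 and 28.2 CPM in uninduced and 1033 and 1671 in HOXA9 OFF libraries, beside the rises of Elf4, Ets1, Fli1 and Sfpi1, and among them C1qb was at 0.43 and 120.8 CPM in HOXA9 OFF replicates 1 and 2. Lymphoid markers (8 genes) were at 47.6 and 78.8 CPM in uninduced and 5.16 and 48.6 in HOXA9 OFF libraries, of which Il7r gave 1.25 and 40.2, and Cd3e and Pax5 did not pass the low-count filter. In CAF-1 OFF libraries the lymphoid sums were 78.0 and 47.6 CPM, of which Rag2 gave 40.3 and 16.8. Of 6 tested, Cd79a and Dntt rose there (log2FCs 2.82 and 3.23), beside 10.5% of all genes, and 0 fell. Erythroid markers (8 genes) stayed between 4.83 and 22.9 CPM in all libraries. The part of any of these in the levels of the factors was not tested.

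Promoter windows were looked up for the factors to see whether they hold the ETS core themselves. RefSeq windows (GRCm38.p6) of 250 bases upstream of a start were present for 8 of the 10 factors, 13 windows in all, each with an exact match in mm9. GGAA, searched on both strands so that TTCC also counts, occurred in 93.4% of 32851 such windows over all genes, with a median of 3 matches (quartiles 2 and 4). The member windows held from 0 to 6. Windows of Elf1, as the factor the study examined, and of Elf4 and Erg, called in 1 treatment each, are given on the gene's strand with matches in capitals.
Elf1 chr14:79880751-79881000 plus strand: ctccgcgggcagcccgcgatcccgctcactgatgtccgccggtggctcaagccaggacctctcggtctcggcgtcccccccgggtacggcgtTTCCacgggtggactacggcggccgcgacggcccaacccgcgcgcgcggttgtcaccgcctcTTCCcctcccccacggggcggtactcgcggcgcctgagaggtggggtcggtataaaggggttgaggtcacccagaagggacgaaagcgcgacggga
Elf4 chrX:45816310-45816559 minus strand: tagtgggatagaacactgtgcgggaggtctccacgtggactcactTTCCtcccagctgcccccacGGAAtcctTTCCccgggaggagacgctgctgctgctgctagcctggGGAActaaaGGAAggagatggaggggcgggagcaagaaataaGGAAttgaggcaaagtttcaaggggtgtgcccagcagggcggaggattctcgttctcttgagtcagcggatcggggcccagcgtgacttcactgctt
Erg chr16:95808201-95808450 minus strand: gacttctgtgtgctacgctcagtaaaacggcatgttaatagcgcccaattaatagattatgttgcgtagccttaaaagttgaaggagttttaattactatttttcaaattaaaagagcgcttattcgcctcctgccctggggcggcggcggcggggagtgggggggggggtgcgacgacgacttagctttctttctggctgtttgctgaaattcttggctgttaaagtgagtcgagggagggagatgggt
The Elf4 window held 6 matches, the Elf1 window 2 and this Erg window 0. At other starts, not shown, the second Elf4 window held 2, the second Elf1 window 0 and the 2 further Erg windows 4 and 2. These counts describe the letters and say nothing of binding.

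The genes whose profile was most like that of Elf1 over the 8 libraries were Zfp942 (Pearson r 0.98), Csnk2a1 (0.979) and Bahd1 (0.977), among 9839 genes whose mean log2 CPM reached 2. Csnk2a1, a catalytic subunit of casein kinase II, was at 128 and 133 CPM in uninduced, 130 and 116 in IPTG-treated control, 93.3 and 71.3 in CAF-1 OFF and 134 and 122 in HOXA9 OFF libraries, so it too was lowest in CAF-1 OFF replicate 2. For Ets1, the factor with the widest range, these were Cryl1 (0.986), Slc4a2 (0.985) and Ppt2 (0.984). Slc4a2, an anion exchanger, was at 65.9 and 63.2 CPM in uninduced, 69.2 and 66.2 in IPTG-treated control, 81.9 and 114 in CAF-1 OFF and 146 and 140 in HOXA9 OFF libraries. These likenesses are descriptions over libraries that share the differences between 4 groups.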

How the data were processed

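Per the labels and the study's methods, RNA libraries (directional NEBNext kit) were aligned to mm9 with STAR and counted per gene with HTSeq, and the deposited files, 1 per library, hold unnormalised read counts by gene symbol. Strand setting and annotation are not given in the sources used here. Groups came from the labels. Counts were filtered (filterByExpr), TMM-scaled and fitted over all 8 libraries with edgeR 4.0.16 in R 4.3.3 (glmQLFit, glmQLFTest, a mean per group, no covariate), with Benjamini-Hochberg adjustment over 13080 genes. Calls needed an FDR under 0.05 and 1.5-fold, as in the study. The biological coefficient of variation was 18.9%. Log2 CPM used a prior count of 2. Lengths and coordinates came from GENCODE vM1 (mm9). The code was tested on simulated data. Members and lists were chosen with earlier results of these data known. Named genes were all members and, per list, up to 4 genes called against uninduced cells, by mean log2 CPM, and for Elf1 and the member of widest range the 3 most correlated genes. Other genes, named where a list's count turned on them, were chosen after their values were seen. Alternatives were DESeq2 1.42.0, other scalings, filters and thresholds, the groups compared alone, a replicate block and leaving out each library; alternatives for the lists were chosen after seeing the data. Figures used matplotlib 3.10.9. One gene of the megakaryocyte lists is not reported here and was left out of their counts.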

Additional observations from a re-analysis of the deposited data

How the results depend on the processing

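The number of the 10 factors called against uninduced cells in CAF-1 OFF cells was 2 and became 1 when just the compared libraries were fitted, 1 with the replicate block and 0 at FDR 0.01 with 2-fold, and from 0 to 1 on leaving out a library. Against IPTG-treated control it was 2 and became 1 with just the compared libraries, 2 with the block, 0 at the stricter threshold and from 0 to 1 on leaving out a library. Between CAF-1 OFF and HOXA9 OFF cells 4 factors were called, and 2 at the stricter threshold, where Ets2 and Fli1 were lost. With library size alone Ets2 and Fli1 were lost there and Elf2 gained. Fli1 was also lost without either CAF-1 OFF library, Ets2 without HOXA9 OFF replicate 2, and Ets1 was gained without CAF-1 OFF replicate 2. The calls of Elf4, Ets1 and Fli1 in HOXA9 OFF cells held under each refitted alternative, and at the stricter threshold Fli1 was lost, leaving 2. The labels do not say what a replicate number marks. Deviations of same-numbered libraries correlated at 0.475, 0.301 and 0.316 among uninduced, IPTG-treated control and HOXA9 OFF libraries but at -0.0443, -0.0173 and 0.0756 with those of CAF-1 OFF, each over 2 libraries a group, so the numbers were not taken as pairs. The call lost with the block was that of Ets1, and the block moved no other count of called factors by over 1.5 times.

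All 25 changes of direction among members were of values not called. With library size alone, Elf1 (-0.187) and Etv6 (-0.0807) in HOXA9 OFF against uninduced cells and Gabpa (0.122) and Elk3 (0.185) between CAF-1 OFF and HOXA9 OFF cells turned, as the median of all genes moved to -0.182 and 0.27 in these comparisons. Elf1 in HOXA9 OFF cells also turned without a filter (-0.0245), with just the compared libraries (-0.0133) and, on leaving out a library, ranged from -0.0481 to 0.0534. Etv6 in HOXA9 OFF cells ranged from -0.0583 to 0.266, and Elk3 in CAF-1 OFF cells from -0.301 to 0.00792 against IPTG-treated control and from -0.114 to 0.00214 against HOXA9 OFF. Differences of IPTG-treated control from uninduced cells, all with an edgeR FDR of 1, ranged from -0.0951 to 0.00594 for Elf1, -0.0954 to 0.0285 for Elf2, -0.111 to 0.177 for Elf4, -0.491 to 0.0148 for Ets1, -0.134 to 0.00599 for Ets2, -0.331 to 0.194 for Fli1, -0.0935 to 0.0612 for Etv6, -0.0622 to 0.188 for Gabpa, -0.164 to 0.168 for Elk3 and -0.076 to 0.184 for Erg on leaving out a library.

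Over all genes, 1836 calls for CAF-1 OFF relative to uninduced cells became 364 at FDR 0.01 with 2-fold and 157 to 1358 on leaving out a library, 1670 against IPTG-treated control became 282 and 199 to 1141, 6179 in HOXA9 OFF cells became 3579 at that threshold, 5695 between treatments became 3008, and 0 for the IPTG-treated control became 5 with DESeq2. List counts, tried after seeing the data under other scalings and on leaving out a library, moved by over 1.5 times in 26 cases and not in 154. With 2 libraries per group a lone library left in a group was assumed to vary like the others, and Ets1, at 12 to 26 counts in control libraries, was the factor least well measured.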
